A study of Mus musculus with 6 samples.

Results

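Lysosomes are the acidic compartments in which cells break down glycans, lipids and proteins. Their soluble hydrolases work inside a membrane kept intact by glycosylated proteins such as LAMP1 and LAMP2, and the transcription factor TFEB can switch on many lysosomal genes through a short promoter motif, CACGTG and its extensions. In antigen-presenting cells, endosomes and lysosomes are also where antigen is degraded and MHC class II molecules are loaded, and in fibroblasts lysosomal enzymes degrade collagen, proteoglycans and other matrix taken up by the cell. The 30 genes described here are lysosomal enzymes, enzyme activators, lipid transfer proteins and membrane proteins together with Tfeb; cathepsins are not among them. They were chosen by gene symbol, and each of the 30 was found once among the 55298 genes listed and was detected in all 6 libraries. All 30 have the same coordinates in GENCODE M21.

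RNA-seq was done on cancer-associated fibroblasts sorted from orthotopic lung tumours of wild-type C57BL/6 mice more than 8 weeks old. Cells with surface MHC class II, which the labels call apCAFs (libraries 1, 2 and 3), were compared with cells without it, the nonapCAFs (libraries 4, 5 and 6), n = 3 per group. Both gates took cells of high forward scatter that were PDPL+ and PDGFRa+ and lacked CD45, CD31, EPCAM and mCherry. Both populations were taken at the same time from pooled tumours in 3 experiments, so no library stands for a single animal, and the labels do not tie libraries to experiments or say which apCAFs library was sorted beside which nonapCAFs library. P-values therefore measure the spread between these libraries, which may be in part technical.

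Values are the authors' normalized counts, and the sequencing depth is unknown. The total of the values ran from 77960347 to 93330791 per library, which is not a read depth. Every apCAFs total lay above every nonapCAFs total. Differences are on the log2(value + 1) scale, apCAFs minus nonapCAFs, with limma's moderated standard error (SE), and a gene was called at a Benjamini-Hochberg adjusted p under 0.05 over 36443 genes. The sorted genes followed the labels: the summed value of H2-Aa, H2-Ab1 and H2-Eb1 was 46815, 49344 and 90882 in apCAFs 1, 2 and 3, against 793 to 1070 in nonapCAFs. Of 9 fibroblast markers limma called 4 higher and 0 lower, beside 3.91% and 0.486% of all genes, and no marker was at 0. Their summed value was 2804563 to 4234120 in apCAFs and 1195622 to 1431423 in nonapCAFs. The collagen genes Col1a1, Col1a2 and Col3a1 made up most of that sum, and Lum ran the other way, with 11026, 11304 and 8086 in apCAFs, against 15611 to 21256 in nonapCAFs (log2 -0.89). In bulk libraries, fewer cells of a type and less RNA per cell cannot be told apart.

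Most of the 30 genes had higher values in apCAFs, by modest factors, and a few stood lower. In 20 genes every apCAFs library lay above every nonapCAFs library, in 3 every apCAFs library lay below, and in 7 the groups overlapped. Of all 36443 genes tested 17.1% lay wholly above and 15.4% wholly below, and of the 12066 well-expressed genes, those whose mean reached 800 as it did for all 30, 24.5% lay above and 30% below. The median log2 difference of the 30 was 0.39, against -0.04 over all genes tested and -0.07 over the well-expressed genes. The single differences ran from -0.71 for Cln3 to 1.61 for Tfeb.

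Few of these differences passed the test over all genes. Limma called 3 of the 30 higher in apCAFs, the sulfatase gene Arsb, the sphingomyelinase gene Smpd1 and the galactosidase gene Gla, beside 3.91% of all genes and 4.98% of well-expressed genes. None of the 30 was called lower, beside 0.486% of all genes and 0.0166% of well-expressed genes. At limma's unadjusted p under 0.05, 14 of the 30 lay higher, beside 13.1% of all genes and 15.1% of well-expressed genes, and 1, Cln3, lay lower, beside 6.19% and 6.95%. The authors' deposited table lists 15 of the 30 as higher and 1, Cln3, as lower at a DESeq2 adjusted p under 0.05, where 20.6% and 9.77% of its 19255 genes with a value are higher and lower.

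The calls did not hold when the libraries were handled in other ways, and the calls over all genes changed too. Both populations came from the same 3 experiments. The labels do not give the experiment, so each possible pairing was fitted, on the assumption of a single library per group from each experiment. With a term for pairs limma called 0 of the 30 in all 6 pairings (9 to 12 higher at an unadjusted p under 0.05). It also called 0 of all 36443 genes (5316 to 6680 at an unadjusted p under 0.05), in fits with fewer residual degrees of freedom. The adjusted p of Gla was then 0.108 to 0.185, that of Arsb 0.116 to 0.149 and that of Smpd1 0.112 to 0.18. Limma also called 0 of the 30, and 0 genes in all, with the alike libraries averaged, apCAFs 1 with 2 and nonapCAFs 4 with 5 (9 of the 30 higher, and 4700 genes in all, at an unadjusted p under 0.05). Limma called 0 of the 30 higher when apCAFs 1, apCAFs 2, nonapCAFs 4, nonapCAFs 5 or nonapCAFs 6 was left out (10 to 15 at an unadjusted p under 0.05), and 4 without apCAFs 3. Over all genes the calls were 310 to 810 and 1791 in these fits, against 1602 with all libraries. Other settings raised the calls: 7 higher with a pseudocount of 10, 10 with only genes of a mean of at least 100, and 12 higher and 1 lower with a variance trend. All-gene calls were then 2527, 2748 and 3453. The counts also moved with scaling: with values divided by library totals, 14 of the 30 genes lay wholly above and 9 wholly below, against 16.8% and 50.2% of well-expressed genes, and limma called only Arsb. With quantile-normalized values 16 lay above and 5 below, against 20.8% and 40.2% of well-expressed genes, and limma again called only Arsb. Dividing by totals put the median of all genes at -0.18 and of the 30 at 0.23, and quantile normalization put them at -0.19 and 0.30.

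**Figure D1:**
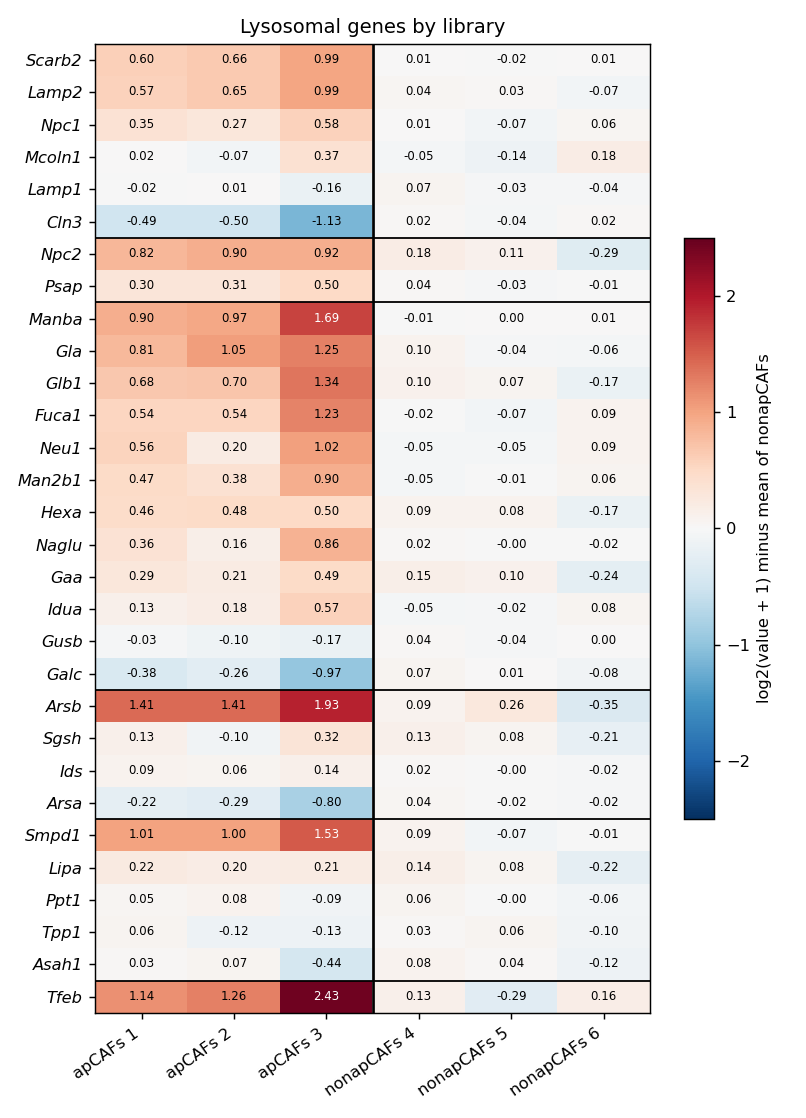
Heat map of the 30 lysosomal genes (rows, grouped by role) in the 6 libraries (columns); each cell is log2(value + 1) minus the mean of the 3 nonapCAFs libraries. Red cells fill most of the apCAFs columns and are darkest in apCAFs 3, where Tfeb stands at 2.43. Of the genes below 0 in apCAFs 3, Cln3, Galc and Arsa stand lowest.

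Among the membrane proteins, LAMP1 and LAMP2, the main glycoproteins of the lysosomal membrane, did not go together. Lamp1 had 33928, 34482 and 30764 in apCAFs 1, 2 and 3 and 36044, 33514 and 33413 in nonapCAFs 4, 5 and 6. These groups overlapped, with a log2 difference of -0.06 (95% confidence interval -0.39 to 0.28; limma adjusted p = 0.817). Lamp2 had 29072, 30638 and 39010 in apCAFs and 20130, 19959 and 18666 in nonapCAFs. Every apCAFs library was higher, and the difference was 0.74 (SE 0.17, limma adjusted p = 0.0839), short of the threshold. Lamp1 shares exon sequence with Grtp1 on the opposite strand, and the strand setting of the counting is not given in the sources used here.

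Scarb2 encodes LIMP-2, which carries the glucocerebrosidase to lysosomes, and was close to Lamp2 in size of difference. Scarb2 had 22428, 23284 and 29445 in apCAFs and 14828, 14582 and 14913 in nonapCAFs (log2 0.75, SE 0.16, limma adjusted p = 0.073). Npc1, the membrane protein that exports cholesterol from the lysosome, had 5616, 5311 and 6557 against 4422, 4197 and 4566 (log2 0.40, limma adjusted p = 0.2275). All apCAFs libraries lay above all nonapCAFs libraries for both genes. Npc1 shares exon sequence with Rmc1 and Gm15956 on the opposite strand.

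Cln3, a lysosomal membrane protein gene mutated in juvenile Batten disease, stood in the other direction. It had 3111, 3099 and 1997 in apCAFs and 4442, 4251 and 4455 in nonapCAFs. No apCAFs library reached a nonapCAFs library, and the difference was -0.71 (SE 0.22, limma adjusted p = 0.171). The authors' deposited table gives Cln3 a log2 fold change of -0.68 with a DESeq2 adjusted p of 0.00417. Cln3 shares exon sequence with Apobr on the opposite strand. Mcoln1, the gene of the lysosomal cation channel TRPML1, ranged from 3602 to 4912 in apCAFs and from 3448 to 4308 in nonapCAFs, with overlapping groups (log2 0.11, interval -0.37 to 0.58).

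The soluble helper proteins lay higher in every apCAFs library, as 24.5% of well-expressed genes did. Psap, the precursor of the saposins that present sphingolipids to their hydrolases, had 69839, 70048 and 80303 in apCAFs and 58096, 55446 and 56311 in nonapCAFs (log2 0.37, SE 0.13, limma adjusted p = 0.223). Npc2, the soluble cholesterol-binding partner of NPC1, had 35233, 37235 and 37614 against 22633, 21541 and 16277. The spread of Npc2 was small in apCAFs and came mostly from nonapCAFs 6 in the other group; its difference of 0.88 (SE 0.18, limma adjusted p = 0.065) was larger than that of Npc1 but was not tested against it.

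Per kilobase of exon, Psap had the highest value in both groups, at 26748 ± 2180 in apCAFs and 20633 ± 493 in nonapCAFs (SD, n = 3). Lamp1 came next in both, at 12358 ± 750 and 12831 ± 557 per kilobase. The place after Lamp1 went to Npc2 in apCAFs, at 6748 ± 235. In nonapCAFs it was shared within the spread by Arsa (3777 ± 95), Npc2 (3705 ± 625) and Gaa (3536 ± 499). Galc and Tfeb were the lowest per kilobase in both groups, with Galc at 88.7 ± 21.5 and Tfeb at 290.1 ± 155.5 in apCAFs, and Galc at 126 ± 6.6 and Tfeb at 87.8 ± 14.4 in nonapCAFs.

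Glycosidases, which remove sugars from glycoproteins, glycolipids and glycosaminoglycans, made up the largest group, and in 10 of the 12 every apCAFs library lay above every nonapCAFs library, as 24.5% of well-expressed genes did. Their median log2 difference was 0.53. Limma called 1 higher and none lower, beside 4.98% and 0.0166% of well-expressed genes. At an unadjusted p under 0.05 it had 6 higher and 0 lower, beside 15.1% and 6.95% of well-expressed genes. The authors' deposited table has 7 higher and 0 lower, beside 20.6% and 9.77% of its genes. Gla, on chromosome X (134588149 to 134601125, mm10, whole gene span), encodes the alpha-galactosidase that degrades globotriaosylceramide. It had 1924, 2282 and 2616 in apCAFs and 1175, 1070 and 1056 in nonapCAFs. The groups were far apart for Gla, 2.05 times as high in apCAFs (log2 1.04, SE 0.17; adjusted p = 0.0378 in limma); its adjusted p ranged from 0.0441 to 0.133 with a library left out, staying under 0.05 only without apCAFs 3.

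Mannosidase genes lay higher in apCAFs as well, without passing. Manba, the beta-mannosidase gene, had 2744, 2870 and 4747 in apCAFs and 1457, 1469 and 1472 in nonapCAFs. The nonapCAFs values of Manba lay very close together while apCAFs 3 stood well above apCAFs 1 and 2, and the difference was 1.19 (SE 0.25, limma adjusted p = 0.0708). Man2b1, the lysosomal alpha-mannosidase gene, had 9521, 8907 and 12827 against 6625, 6790 and 7163 (log2 0.59, limma adjusted p = 0.18). Fuca1, for the fucosidase of the same glycan pathway, had 6149, 6137 and 9942 against 4178, 4034 and 4496 (log2 0.77, limma adjusted p = 0.168). In each of these genes apCAFs 3 was the highest library.

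Glb1 and Neu1 encode the beta-galactosidase and the sialidase that sit together in a lysosomal complex. Glb1 had 9416, 9546 and 14857 in apCAFs and 6310, 6193 and 5215 in nonapCAFs (log2 0.90, SE 0.23, limma adjusted p = 0.117). Neu1 had 1767, 1375 and 2433 against 1161, 1160 and 1280 (log2 0.59, SE 0.24, limma adjusted p = 0.271). The groups did not overlap for either gene, but apCAFs 2 was only slightly above nonapCAFs 6 for Neu1. Glb1 shares exon sequence with Tmppe on the same strand, so its reads are less certain.

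Hexa, the alpha subunit of beta-hexosaminidase, was the most even of the glycosidase genes in apCAFs, with 7950, 8043 and 8147 against 6132, 6101 and 5117 (log2 0.48, SE 0.14, limma adjusted p = 0.151). It shares exon sequence with Tmem202 on the opposite strand. Gaa, the acid glucosidase that degrades glycogen, had 20516, 19381 and 23547 against 18577, 17980 and 14175 (log2 0.33, limma adjusted p = 0.352). For Gaa the gap between the lowest apCAFs and the highest nonapCAFs library was small beside the spread in either group.

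Of the glycosidases of heparan and dermatan sulfate, Naglu had 5039, 4383 and 7152 in apCAFs and 3989, 3921 and 3893 in nonapCAFs (log2 0.46, limma adjusted p = 0.31). Idua, the iduronidase gene, had 1450, 1503 and 1971 against 1278, 1306 and 1401 (log2 0.29, limma adjusted p = 0.398), and shares exon sequence with Dgkq and Slc26a1. In both, apCAFs 3 stood farther above nonapCAFs than apCAFs 1 and 2 did. Gusb, the beta-glucuronidase gene, overlapped between groups, at 5898 to 6502 in apCAFs and 6470 to 6797 in nonapCAFs (log2 -0.10, interval -0.42 to 0.22).

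Galc, the galactosylceramidase gene, was the glycosidase with the lower values in apCAFs. It had 1435, 1565 and 958 in apCAFs and 1964, 1890 and 1769 in nonapCAFs, with no overlap (log2 -0.54, SE 0.23, limma adjusted p = 0.284). Galc overlaps the antisense gene Gm47439.

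**Figure D2:**
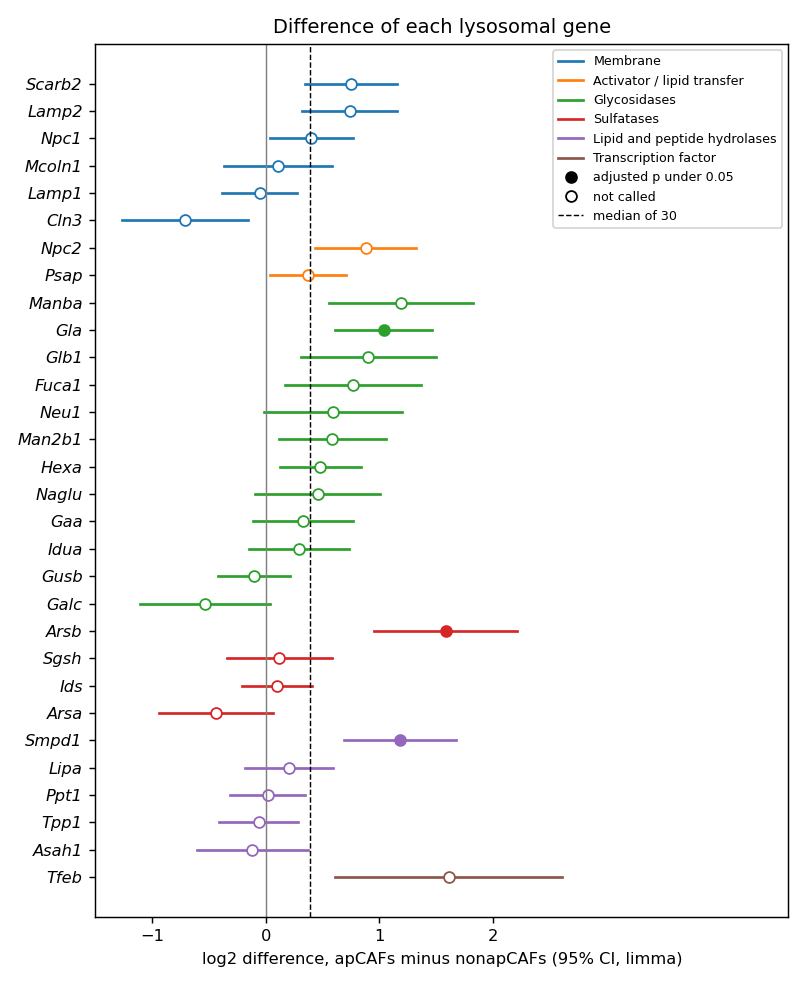
Log2 difference (apCAFs minus nonapCAFs, x axis) of each of the 30 genes with its 95% confidence interval from limma; filled points passed at an adjusted p under 0.05 and the dashed line is the median of the 30, 0.39. Arsb, Smpd1 and Gla are filled, and Tfeb has the largest estimate, 1.61, with the widest interval. Of the 7 estimates left of 0, those of Cln3, Galc and Arsa are the lowest.

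Sulfatases release sulfate from glycosaminoglycans and sulfolipids, and their 4 genes ran in different directions. Arsb, on chromosome 13 (93771630 to 93943016, mm10), encodes the sulfatase that acts on dermatan and chondroitin sulfate. It had 7811, 7780 and 11190 in apCAFs and 3129, 3515 and 2293 in nonapCAFs. Every apCAFs library was far above every nonapCAFs library, and Arsb was 3.00-fold higher (log2 1.58, SE 0.25, limma adjusted p = 0.0357). Leaving out any library gave a log2 difference of 1.41 to 1.72 and an adjusted p of 0.0554 to 0.114. Arsb overlaps the noncoding genes Gm26527 and Gm47210 on the opposite strand.

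Arsa, whose enzyme removes sulfate from cerebroside sulfate, had lower values in apCAFs. It had 11900, 11377 and 7961 in apCAFs and 14299, 13731 and 13663 in nonapCAFs (log2 -0.44, SE 0.20, limma adjusted p = 0.298), and it shares exon sequence with the antisense gene C230037L18Rik. No apCAFs library reached the nonapCAFs range, and apCAFs 3 was the lowest. The heparan sulfate genes Ids and Sgsh were close in both groups: Ids, for the iduronate sulfatase, had 3724, 3647 and 3833 against 3546, 3488 and 3437 (log2 0.10, interval -0.21 to 0.40). Sgsh, for the heparan N-sulfatase, ranged from 1355 to 1805 in apCAFs and from 1250 to 1589 in nonapCAFs (log2 0.12, interval -0.34 to 0.58). Both signs turned with values divided by library totals (-0.05 for Ids and -0.03 for Sgsh), as did that of Mcoln1 (-0.05). Sgsh shares exon sequence with Card14 on the opposite strand.

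Lipid and peptide hydrolases held 1 gene of 5 called higher by limma, beside 4.98% of well-expressed genes. Smpd1, on chromosome 7 (105554360 to 105558389, mm10), encodes acid sphingomyelinase, which turns sphingomyelin into ceramide. It had 2631, 2607 and 3756 in apCAFs and 1384, 1239 and 1294 in nonapCAFs. Smpd1 was 2.26-fold higher (log2 1.18, SE 0.20, limma adjusted p = 0.0398), and no exon of another gene overlaps it in GENCODE M21. Its adjusted p was 0.0239 without apCAFs 3 and 0.0876 to 0.14 without any other library.

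The next enzyme of that pathway did not follow. Asah1, the acid ceramidase gene, ranged from 7874 to 11216 in apCAFs and from 9871 to 11351 in nonapCAFs (log2 -0.12, interval -0.60 to 0.37). Lipa, the acid lipase that frees cholesterol from its esters, had 8469, 8339 and 8438 against 8045, 7676 and 6256 (log2 0.21, limma adjusted p = 0.504). Although the groups of Lipa did not overlap, the difference was close to the SD of log2 values in nonapCAFs, 0.19.

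Ppt1 and Tpp1 encode the thioesterase and the tripeptidyl peptidase lost in infantile and late infantile neuronal ceroid lipofuscinosis. Ppt1 ranged from 4796 to 5384 in apCAFs and from 4872 to 5322 in nonapCAFs, a log2 difference of 0.02 (interval -0.32 to 0.35). Tpp1 ranged from 8162 to 9350 and from 8375 to 9351, a difference of -0.06 (interval -0.41 to 0.28). In both genes apCAFs 3 was the lowest apCAFs library, and the groups overlapped. Ppt1 shares exon sequence with Cap1 on the opposite strand.

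**Figure D3:**
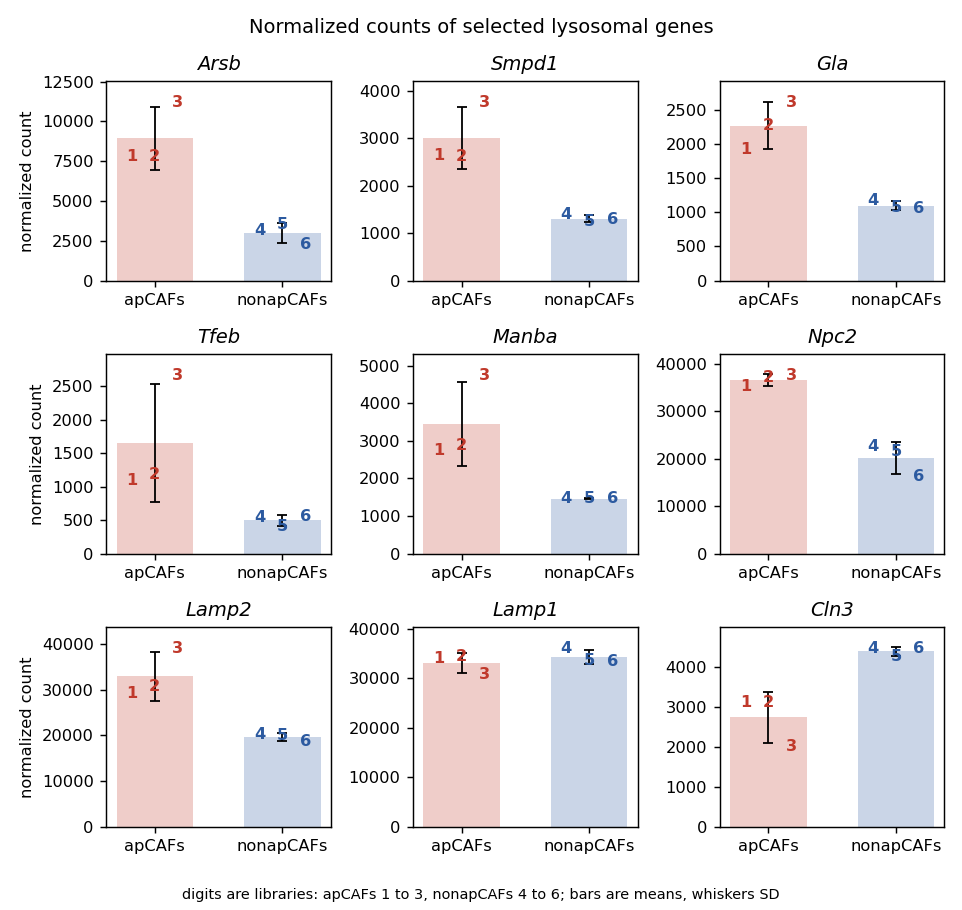
Normalized counts (y axis, from 0) of 9 lysosomal genes; bars are group means, whiskers the SD (n = 3) and digits the libraries (apCAFs 1 to 3, nonapCAFs 4 to 6). The groups are apart for each gene except Lamp1, Cln3 alone is lower in apCAFs without overlap, and Tfeb has its widest spread in apCAFs, from 1089 to 2661.

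Tfeb itself, on chromosome 17 (47737030 to 47792419, mm10), had the largest estimate of the 30 and the largest spread among apCAFs. It had 1089, 1183 and 2661 in apCAFs and 540, 404 and 550 in nonapCAFs. All apCAFs libraries were above all nonapCAFs libraries, by 2.30-fold in apCAFs 1 and 2 together and by 5.39-fold in apCAFs 3. The fitted log2 difference of 1.61 (SE 0.40, interval 0.61 to 2.61) missed the threshold in limma (adjusted p = 0.101). The authors' deposited table gives Tfeb a log2 fold change of 1.72 and a DESeq2 adjusted p of 3.66e-05.

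Since TFEB binds CACGTG-containing sites, the promoters of the 30 genes were searched for that motif, which reads the same on both strands, and for its extension TCACGTGA, also the same on both strands, which contains it. RefSeq windows (GRCm38.p6) matched 28 of the 30 symbols, all but Asah1 and Npc1, and the 250 bases before each annotated start were read. CACGTG occurred in 9 of the 28 genes (32.1%): Arsa, Cln3, Gaa, Gla, Glb1, Lamp1, Mcoln1, Naglu and Sgsh. It occurred in 6.86% of all 27025 genes with a window and in 10.3% of the 7985 that were also well expressed. TCACGTGA occurred in Cln3, Gla and Mcoln1, that is in 10.7% of the 28, against 0.907% of all genes and 1.99% of the well-expressed ones.

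These sites are shown because they mark which members carry the motif and let it be set beside the expression values; capitals mark CACGTG, sequences run 5′ to 3′ on the gene's strand, and each is at most 30 bases, or the 250-base window for Lamp1 (chr8:13158911-13159160, plus strand), which holds 4 copies, and for Smpd1 (chr7:105554110-105554359, plus strand), a called gene with none.
Gla, chrX:134601215-134601244, minus strand: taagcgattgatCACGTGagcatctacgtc
Gla, chrX:134601182-134601211, minus strand: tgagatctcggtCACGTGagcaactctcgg
Cln3, chr7:126583340-126583369, minus strand: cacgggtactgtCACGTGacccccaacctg
Mcoln1, chr8:3500462-3500491, plus strand: aggcgccccgctCACGTGaccgcggcgcat
Glb1, chr9:114401018-114401047, plus strand: ctgcttctgagtCACGTGgcctacagaggc
Naglu, chr11:101070009-101070038, plus strand: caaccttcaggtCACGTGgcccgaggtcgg
Lamp1: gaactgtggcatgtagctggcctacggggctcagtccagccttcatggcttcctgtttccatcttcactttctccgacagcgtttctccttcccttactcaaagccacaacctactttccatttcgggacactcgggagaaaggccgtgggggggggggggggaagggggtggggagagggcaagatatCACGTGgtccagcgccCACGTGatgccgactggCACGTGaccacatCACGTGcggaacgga
Smpd1: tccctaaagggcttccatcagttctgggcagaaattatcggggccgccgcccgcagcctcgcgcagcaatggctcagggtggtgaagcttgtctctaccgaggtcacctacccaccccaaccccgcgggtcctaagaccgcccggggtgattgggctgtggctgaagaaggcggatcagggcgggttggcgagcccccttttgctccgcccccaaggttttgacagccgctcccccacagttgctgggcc

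Genes with the motif lay in both directions, and so did genes without it. The 9 genes with CACGTG had a median log2 difference of 0.12, from -0.71 for Cln3 to 1.04 for Gla, and the 19 without it had a median of 0.59, from -0.54 for Galc to 1.61 for Tfeb. Gla, which was called higher, and Cln3, the lowest of the 30, both carry an extended copy. Cln3 has 2 RefSeq windows, and its copies are in the one that lies inside the gene's span. The Cln3 window at the start of the span (chr7:126585818-126586067) has none. The printed Mcoln1 and Naglu motifs also lie inside the GENCODE M21 gene spans, which start at 3500457 and 101070012 on the plus strand. Lamp1, with 4 copies within 61 bases of its start, had overlapping groups, while Arsb and Smpd1 passed the test with none in the window. A missing match says only that these letters are not in this window, and a match is not a measured binding site. The part of TFEB in these differences was not tested.

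Within apCAFs, library 3 differed from libraries 1 and 2 to a degree that varied by gene. It was the highest of the apCAFs libraries for 21 of the 30 genes (70.0%), against 41.1% of well-expressed genes. It was the lowest for 8, against 50.1% of well-expressed genes. These shares are over lists of unlike direction: 23 of the 30 differences were positive, against 5116 of the 12066 well-expressed genes. For 19 of the 20 genes that lay wholly above nonapCAFs apCAFs 3 was the highest, Lipa being the exception. For Cln3, Galc and Arsa, which lay wholly below, it was the lowest. The like shares among well-expressed genes wholly above or below were not computed. In all 30 genes apCAFs 3 lay farther from the nonapCAFs mean than the mean of apCAFs 1 and 2 did, which held for 83% of well-expressed genes. The gap was small for some genes, such as Lipa (log2 0.212 in apCAFs 3 and 0.206 in apCAFs 1 and 2) and Hexa (0.50 and 0.47). The sign differed for Asah1 (-0.44 and 0.05), Ppt1 (-0.09 and 0.07) and Mcoln1 (0.37 and -0.03). The median difference from nonapCAFs was 0.54 in apCAFs 3 and 0.28 in apCAFs 1 and 2. The median SD of log2 values was 0.23 in apCAFs and 0.08 in nonapCAFs, and the SD was larger in apCAFs for 25 of the 30.

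**Figure D4:**
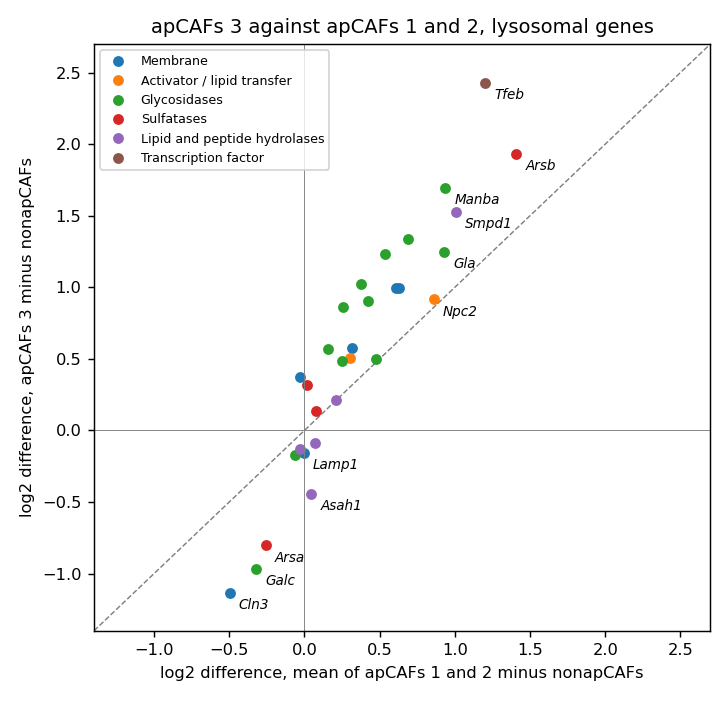
Each point is 1 of the 30 genes, with the log2 difference from the nonapCAFs mean in apCAFs 1 and 2 (x axis, mean of both) and in apCAFs 3 (y axis); the dashed line marks equal differences. All 22 genes above 0 in apCAFs 3 lie above the line and all 8 below 0 lie under it, with Tfeb (1.20 and 2.43) and Cln3 (-0.50 and -1.13) at the ends.

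The libraries also differed in transcripts of other cell types, which are given here beside the lysosomal values. The summed value of 11 alveolar type II markers, such as the surfactant gene Sftpc, was 107916, 89718 and 12607 in apCAFs 1, 2 and 3, against 13837 to 15468 in nonapCAFs; none was at 0 in any library. Limma called none of the 11, with 0 at an unadjusted p under 0.05, while the authors' deposited table lists 8 as higher. Abca3, Etv5, Lpcat1 and Lamp3 made up most of the sum in apCAFs 3 (4425, 3387, 3623 and 800) and in nonapCAFs. Sftpc itself had 48853, 40491 and 226 in apCAFs, against 124 to 185 in nonapCAFs. Sftpb had 13826, 10327 and 72, against 32 to 129. The median log2 difference of the 30 lysosomal genes was 0.54 in apCAFs 3 and 0.28 in apCAFs 1 and 2. Over well-expressed genes these medians were -0.09 and -0.04.

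Macrophages are rich in lysosomes, and their 16 markers summed to 13048, 12706 and 5749 in apCAFs 1, 2 and 3, against 2637 to 4203 in nonapCAFs. Limma called none of the 16 (2 higher and 0 lower by unadjusted p), the authors' deposited table lists 3 as higher, and 15 of the 16 differences were positive. Much of the sum in apCAFs 1 and 2 was Lyz2 (9898 and 9470, against 640 in apCAFs 3), while Csf1r was highest in apCAFs 3 (1316, 1444 and 2478, against 872 to 912). The macrophage marker Adgre1 was at 30, 9 and 27 in apCAFs, against 0 to 21 in nonapCAFs, and Siglecf was at 0 in every library but apCAFs 2, where it was 1. Mrc1 had 53, 50 and 257 in apCAFs, against 19 to 50 in nonapCAFs, and Ear2 had 78, 72 and 496, against 6 to 34. Among the apCAFs libraries, apCAFs 3 was the highest for 10 of the 16 macrophage markers and the lowest for 2. Dendritic and B cell markers, 10 genes, summed to 2051 to 2250 in apCAFs and 2169 to 2215 in nonapCAFs, but single genes went opposite ways: 3 lay wholly above and 3 wholly below. Zbtb46 had 860, 802 and 1782 in apCAFs, against 355 to 422, while Itgax had 177 to 303, against 526 to 556, and Clec9a 260 to 854, against 1112 to 1180. Limma called none of the 10 (3 higher and 1 lower by unadjusted p), the authors' deposited table lists 1 as higher and 1 as lower, and Cd209a was at 0 in all apCAFs libraries. The 6 endothelial markers summed to 342 to 635 and 282 to 422, with 0 called by limma, 0 at an unadjusted p under 0.05 and 0 in the authors' deposited table. The part of these cell types in the lysosomal differences was not tested.

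Mesothelial markers moved with the groups in all libraries: 6 of 7 were called higher in apCAFs by limma, beside 3.91% of all genes. The sum of these markers was 38905, 36818 and 47728 in apCAFs 1, 2 and 3, against 5073 to 5863 in nonapCAFs, with no marker at 0. Their part in the lysosomal differences was not tested either. The summed value of the 30 lysosomal genes was 340244, 341000 and 386173 in apCAFs, against 258439 to 282255 in nonapCAFs. All apCAFs sums lay above all nonapCAFs sums.

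Other genes of the lysosomal system were read from 6 further lists, whose counts stand beside 3.91% of all genes called higher and 0.486% called lower by limma, 13.1% and 6.19% by unadjusted p, and 20.6% and 9.77% in the authors' deposited table. Of 28 other hydrolases and activators, limma called 3 higher and 0 lower (10 and 0 where the p was left unadjusted), with a median of 0.27, and the authors' deposited table lists 15 higher and 1 lower. Gm2a, the activator that presents ganglioside to beta-hexosaminidase, had 4766, 4593 and 8216 in apCAFs and 972, 883 and 1068 in nonapCAFs (5.81-fold, limma adjusted p = 0.0176). Acp5, the tartrate-resistant acid phosphatase gene, had 1231, 1103 and 2547 against 123, 155 and 173 (10.1-fold, limma adjusted p = 0.0181). Creg1, a small lysosomal glycoprotein gene, had 4542, 4286 and 6272 against 1559, 1618 and 1539 (3.16-fold, limma adjusted p = 0.0187). For all 3 the apCAFs libraries were far above the nonapCAFs range. Acp5 overlaps 6530413G14Rik on the opposite strand.

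Of 27 other membrane proteins and transporters detected (1 more was at 0 in all libraries), none was called, with 6 higher and 2 lower when limma's p was left unadjusted, and 8 higher and 2 lower in the authors' deposited table. Their median was 0.30. Laptm4a, the most abundant, had 43038, 43652 and 52671 against 34141, 33192 and 30564 (log2 0.50), and Tpcn1, a cation channel gene, had 12649, 10775 and 6046 against 18339, 18258 and 16562 (log2 -0.92, limma adjusted p = 0.198). These 2 genes lay apart between groups in opposite directions.

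The 25 subunits of the vacuolar proton pump, which acidifies the lysosome, gave 0 limma calls (2 higher and 0 lower by unadjusted p; 4 higher in the authors' deposited table), and their median was 0.21. The most abundant, Tcirg1, overlapped between groups, at 18319 to 25761 in apCAFs and 17052 to 18641 in nonapCAFs, and Atp6ap1 had 6998 to 7984 against 6370 to 6797.

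Soluble hydrolases reach lysosomes through mannose 6-phosphate tags and sorting receptors. Of 13 such genes limma called 1, Sort1, higher and 0 lower (3 and 0 by unadjusted p; 3 and 1 in the authors' deposited table), with a median of -0.12. Sort1, named after its values were seen, encodes sortilin, which carries prosaposin and other cargo to lysosomes; it had 3821, 3788 and 4852 in apCAFs and 823, 790 and 1173 in nonapCAFs (4.51-fold, limma adjusted p = 0.0159), and it overlaps the antisense gene Gm12523. The abundant receptor gene Igf2r ranged from 21254 to 29515 and from 21234 to 38674, with overlap. Gnptab, of the enzyme that adds the tag, had 9209, 9079 and 16675 against 5571, 5812 and 5883 (log2 0.96, limma adjusted p = 0.149), and overlaps the noncoding genes Gm16235 and Gm26546 on the opposite strand.

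Of 22 genes of the TFEB family and of mTORC1 control at the lysosome, none was called (3 higher and 2 lower by unadjusted p in limma; 2 and 4 in the authors' deposited table), with a median of 0.13. The most abundant, Tsc2 and Ppp3cb, had lower values in every apCAFs library, with log2 differences of -0.28 and -0.25 (limma adjusted p = 0.302 and 0.312); Tsc2 shares exon sequence with Pkd1 on the opposite strand. Of 20 autophagy genes limma called 1 higher, the receptor gene Optn, named after its values were seen (613, 577 and 860 against 261, 272 and 339, limma adjusted p = 0.0497; it overlaps the antisense gene 4930551O13Rik), and 0 lower (6 and 1 by unadjusted p; 8 and 2 in the authors' deposited table). Their median was 0.27. Sqstm1, the most abundant of them, overlapped between groups at 45096 to 57816 and 31879 to 52361, and Wipi2 had 7189 to 7912 against 8770 to 9334. Sqstm1 shares exon sequence with Mrnip on the opposite strand.

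**Figure D5:**
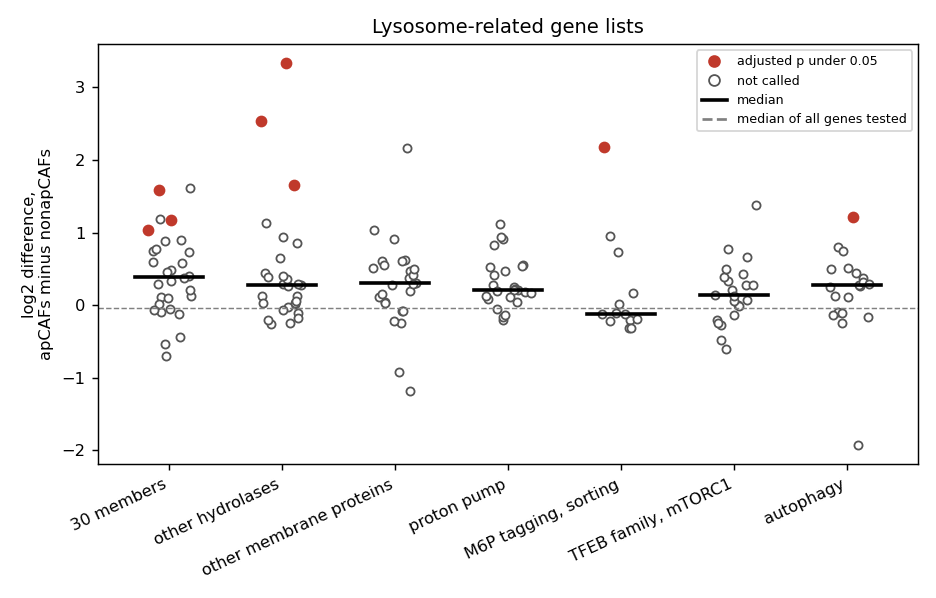
Log2 difference (apCAFs minus nonapCAFs, y axis) of each gene in the 30 lysosomal genes and 6 related lists (x axis); red points passed at a limma adjusted p under 0.05, black bars are list medians and the dashed line is the median of all genes tested, -0.04. Medians lie above the dashed line in all lists but that of mannose 6-phosphate tagging and sorting, -0.12.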

How the data were processed

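Per the file headers, the authors deposited normalized gene counts as whole numbers, and each deposited value is treated as a score and not as a raw count. The authors' deposited table of all genes also holds log2 values, group means, a DESeq2 p-value and adjusted p-value, a fold ratio and each gene's GC percent (not used). Trim Galore, Bowtie2, DESeq2 and mm10 appear in the submitters' processing notes, with no role stated; how reads were counted, and with which annotation and strand setting, is not given in the sources used here. Genes above 0 in 1 or more libraries (36443, while the other 18855 were at 0 in all) entered a limma 3.58.1 fit (R 4.3.3). The fit was of log2(value + 1) on group alone, with no variance trend. Its code was tried on simulated data with independent libraries, which do not cover libraries that share an experiment. P-values are two-sided. Gene overlaps and union exon lengths came from GENCODE M21, promoters from RefSeq. Alternatives were another pseudocount, a filter on low values, other scalings, a variance trend, left-out or averaged libraries, pairings and the values of the authors' deposited table.

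The 30 genes and the related lists were chosen with earlier results of these data known. Values in every library are given for genes that were called or did not overlap between groups, the 5 most abundant, those with the largest spread, and Tfeb, Lamp1, Lamp2 and Psap. From each related list the text names up to 4 called genes, or the 2 most abundant where fewer than 2 were called.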

Additional observations from a re-analysis of the deposited data

How the results depend on the processing

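The median difference of the 30 genes kept its sign in all 20 alternatives (0.23 to 0.54; 0.28 to 0.44 with a library left out). Counts of calls did not hold. Limma called 7 members higher with a pseudocount of 10, 10 with only genes of a mean value of at least 100, 12 higher and 1 lower with a variance trend, 11 and 3 without apCAFs 1 and 2 (chosen after seeing the data; the spread then comes from nonapCAFs alone, which vary less than apCAFs, so these calls carry no weight), and 1 higher with values divided by library totals or quantile-normalized; the DESeq2 values in the authors' deposited table give 15 and 1. With a library left out it called 0 to 4 higher and 0 lower. With the alike libraries apCAFs 1 and 2 averaged, and likewise nonapCAFs 4 and 5, it called 0 members and 0 genes in all (9 members higher and 0 lower, and 4700 genes, at an unadjusted p under 0.05). No paired analysis was possible because the labels tie no apCAFs library to a nonapCAFs library; with a replicate block under each of the 6 possible pairings limma called 0 members and 0 genes (9 to 12 members higher at an unadjusted p under 0.05), a fit with fewer residual degrees of freedom in which the differences are the same by construction. Over all genes the calls numbered 1602, against 2527 with the pseudocount, 2748 with the filter, 3453 with the trend, 4575 without apCAFs 1 and 2, 5842 in the authors' deposited table and 310 to 1791 with a library left out. In the related lists 5 genes were called, against 11, 20, 23, 18, 50 and 0 to 8 in the same order, and 0 with averaged pairs or a replicate block. Signs turned in genes near 0: with values divided by library totals Mcoln1 (-0.0461), Ids (-0.0548), Sgsh (-0.0339) and Ppt1 (-0.136); with quantile-normalized values Ppt1 (-0.0111); and without apCAFs 1 and 2 Ppt1 (-0.0862). With a library left out Mcoln1 ran from -0.0277 to 0.198, Asah1 from -0.209 to 0.0464 and Ppt1 from -0.0166 to 0.0668. The cause of these shifts was not tested, beyond the fewer genes tested under the filter and the fewer libraries in left-out fits. Depth is unknown, so no counting limits can be given.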
